A study of Homo sapiens with 6 samples.

Results

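The heat shock chaperone genes described here are 10 human genes that encode the central protein folding machinery of the cell: HSP90AA1, HSP90AB1, HSPA8, HSPA1A, HSPA1B, HSPD1, HSPE1, HSPH1, DNAJB1 and HSPA5. They were taken by name from the GENCODE annotation of the genome build GRCh37, in which each has 1 canonical transcription start site (TSS), out of 19881 canonical TSSs of protein coding genes. The list was chosen from HA binding values of these libraries, because HSP90AA1 stood among the most enriched HA promoters, so the HA values of the members are given as a description and carry no test. HA peaks and H3K4me3 regions were assigned to a TSS when they lay within 1 kb of it.

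Native ChIP-Seq (nChIP-Seq), in which chromatin is cut to nucleosomes with micrococcal nuclease and precipitated without crosslinking, was performed in over-confluent U2OS cells, a human osteosarcoma cell line grown for 2 days past confluence. A lentiviral vector made the stable ProMMP2-3xHA line, which constitutively expresses pro-MMP-2, a protease, with 3 HA epitopes at its C terminus, whereas WT cells carry no tag, so the HA antibody recovers the added and not the endogenous MMP-2. HA peaks were held for 3 replicates of ProMMP2-3xHA cells and for their merge, and H3K4me3 regions for 1 library of either line. No peaks of the WT HA library were analysed here, and per the list names an HA control served as the background of the HA peaks.

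Chaperones bind unfolded or partly folded proteins. HSP70 proteins hold short exposed stretches of a client, J-domain proteins deliver clients to HSP70 and stimulate its ATPase, HSP110 proteins exchange its nucleotide, and HSP90 acts on clients that are nearly folded. In stressed cells the transcription factor HSF1 binds heat shock elements, adjoining copies of the unit GAA in alternating orientation, in the promoters of the inducible genes. Some of these promoters are also kept open in unstressed cells, with a paused polymerase just downstream of the TSS. Trimethylation of lysine 4 of histone H3 (H3K4me3) marks the nucleosomes around the TSS of active genes.

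Depth was recovered for the HA libraries, which held a mean of 4.23 to 4.74 fragments per base and 41 to 49 fragments at the median summit. At the commonest control background, the weakest called summits held 29, 23 and 24 fragments in replicates 1, 2 and 3, so a promoter without a peak may still hold HA signal below these numbers. Where the control background is higher, more fragments may go uncalled. Replicate 1 held 6401 peaks, against 9193 and 8933 in replicates 2 and 3. For the H3K4me3 libraries the depth is unknown. Of 5 fixed genes of the osteoblast and mesenchymal lineage, 4 carried H3K4me3 at the TSS in each line (RUNX2, COL1A1, SPARC and VIM, but not COL1A2), and of 6 genes of other cell types only EPCAM did, in WT cells. The study describes the HA replicates as biologically independent experiments.

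The promoters of the chaperone genes differ in the heat shock elements they carry. The genes were listed as heat shock chaperones, and such elements belong to the inducible ones. The share of members with an element is therefore not independent of the choice. The 200 bases before the TSS are printed for 5 members, read 5′ to 3′ along the gene from GRCh37, with elements of 2 or more adjoining units in capitals. HSP90AA1 and DNAJB1 had the highest HA enrichment of the members, HSPA1A and HSPA1B are a near-identical pair, and HSPH1 had an element but no HA peak. HSP90AA1 lies at chr14:102553382-102553581 on the minus strand, DNAJB1 at chr19:14629210-14629409 on the minus strand, HSPA1A at chr6:31783120-31783319 on the plus strand, HSPA1B at chr6:31795315-31795514 on the plus strand and HSPH1 at chr13:31736042-31736241 on the minus strand. For HSPD1, bases −300 to −201 are shown instead, at chr2:198364765-198364864 on the minus strand, because its element lies farther upstream, in the stretch it shares with HSPE1.
HSP90AA1: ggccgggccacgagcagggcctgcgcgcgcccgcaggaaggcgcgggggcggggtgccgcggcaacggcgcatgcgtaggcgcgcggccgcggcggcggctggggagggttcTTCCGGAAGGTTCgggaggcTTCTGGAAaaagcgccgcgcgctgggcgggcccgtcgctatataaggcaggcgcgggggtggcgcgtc
DNAJB1: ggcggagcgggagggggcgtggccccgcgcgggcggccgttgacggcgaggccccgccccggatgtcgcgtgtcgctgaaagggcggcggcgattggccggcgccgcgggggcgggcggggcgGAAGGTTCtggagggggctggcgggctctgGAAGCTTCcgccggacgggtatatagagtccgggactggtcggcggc
HSPA1A: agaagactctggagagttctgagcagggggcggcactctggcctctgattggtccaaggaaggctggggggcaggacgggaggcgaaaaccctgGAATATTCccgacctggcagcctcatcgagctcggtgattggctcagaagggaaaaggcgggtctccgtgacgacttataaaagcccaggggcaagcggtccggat
HSPA1B: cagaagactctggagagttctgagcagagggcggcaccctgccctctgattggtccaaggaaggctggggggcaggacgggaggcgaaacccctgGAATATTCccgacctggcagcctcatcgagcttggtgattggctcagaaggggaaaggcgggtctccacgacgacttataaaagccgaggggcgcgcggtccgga
HSPH1: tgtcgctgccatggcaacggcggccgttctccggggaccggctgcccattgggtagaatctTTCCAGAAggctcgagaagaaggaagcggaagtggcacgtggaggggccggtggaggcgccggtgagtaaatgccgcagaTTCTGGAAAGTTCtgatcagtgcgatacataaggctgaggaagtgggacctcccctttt
HSPD1: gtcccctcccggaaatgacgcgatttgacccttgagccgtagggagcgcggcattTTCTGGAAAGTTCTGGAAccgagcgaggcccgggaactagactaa

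An element of 3 adjoining units, GAANNTTCNNGAA on either strand, was found from 500 bp upstream to 100 bp downstream of the TSS in 5 of the 10 members (HSP90AA1, HSPA8, HSPD1, HSPE1 and HSPH1), against 0.805% of all 19881 promoters. HSP90AA1 had it at −88 to −76 and another 2 adjoining units at −68 to −61. HSPA8 had 3-unit elements at −230 to −218 and at −55 to −43, and HSPH1 had one at −59 to −47. HSPD1 and HSPE1, which are transcribed away from each other, share 1 run of adjoining units that starts at −245 from HSPD1 and at −311 from HSPE1, and so they count the same bases. Elements of 2 adjoining units, GAANNTTC or TTCNNGAA, which each 3-unit element contains, were also present at HSPA1A, HSPA1B and DNAJB1. This made 8 of 10 members, but 22.4% of all promoters held such a shorter match, so it says less.

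HSP90AB1 and HSPA5 had no heat shock element of either length in this window. HSPA5 is a target of the unfolded protein response of the endoplasmic reticulum (ER), and its promoter held the ER stress response element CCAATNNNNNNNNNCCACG at −66 to −48, which 0.126% of all promoters held on either strand. The shorter CCAAT, which that element contains, was found at 7 members and at 52.8% of all promoters. Only HSPA1A and HSPA1B held TATAAA, at −30 to −25 and −29 to −24, against 18.6% of all promoters. Only this exact string was searched, so variants such as the TATATAA in the printed HSP90AA1 stretch were not counted. The GC box GGGCGG was found at all 10 members and at 68.6% of all promoters. The GC content of the 250 bp on either side of the TSS ranged from 51.9% at HSP90AB1 to 74.3% at HSP90AA1, with a median of 65.2% over the members and 64.7% over all TSSs.

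To examine where tagged MMP-2 resided at these genes, the HA peaks around each TSS were collected. A merged HA peak lay within 1 kb of the TSS of 7 of the 10 members, where 30.4% of all canonical TSSs had one. The same 7 genes, HSP90AA1, HSP90AB1, HSPA8, HSPA1A, HSPA1B, DNAJB1 and HSPA5, had a peak in every replicate, which held for 17.5% of all TSSs. By replicate, 7, 9 and 9 members had a peak in replicates 1, 2 and 3, where 22%, 29.9% and 30.8% of all TSSs did. HSPD1 and HSPE1 had a peak in replicates 2 and 3 only, and HSPH1 was the 1 member with no HA peak in any replicate, which was the state of 62.1% of all TSSs. These HA counts follow from how the list was chosen, and nothing is read from their distance to the background. Among the 12128 TSSs with H3K4me3 in both lines, where all 10 members belong, 49.2% had a merged HA peak.

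**Figure D1:**
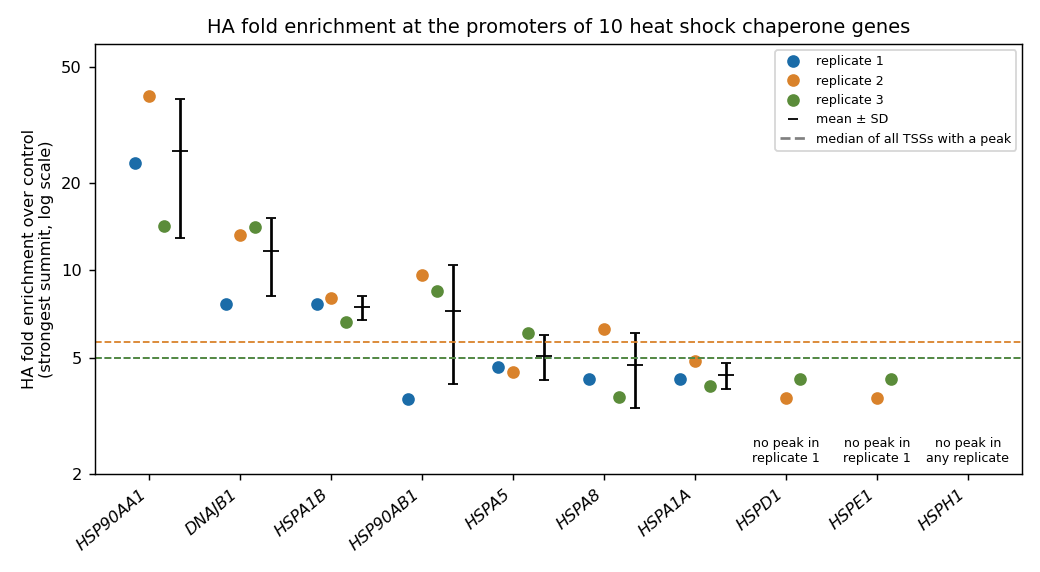
HA fold enrichment of the strongest summit within 1 kb of the TSS (log axis) for each member, with 1 point per HA replicate and the mean ± SD where all 3 replicates had a peak; dashed lines give each replicate's median over all TSSs with a peak, and those of replicates 1 and 3 nearly coincide. HSP90AA1 and DNAJB1 lie above these medians in each replicate, while HSPA1A, HSPD1 and HSPE1 lie below them wherever they have a peak.

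HSP90AA1, on the minus strand of chromosome 14 with its canonical TSS at 102553381, encodes the stress-inducible cytosolic HSP90. Its HA fold enrichment over the control was 23.4, 39.7 and 14.2 by replicate, with a mean of 25.8 ± 12.9 (SD, n = 3). This mean ranked 1 among the 3480 TSSs that had a peak in every replicate. The gene ranked 3, 2 and 42 among TSSs with a peak in replicates 1, 2 and 3. The replicates differed widely, and replicate 3 was the lowest. At the summit 191 fragments (exact Poisson 95% interval 165 to 220), 281 (249 to 316) and 100 (81.4 to 122) were recovered, and the interval of replicate 3 overlapped neither of the others. The control background there was at its commonest value in each replicate, 1.33, 1.55 and 1.41 fragments per base. Fragments are counted at the depth of the HA library and the background at that of the control, so their quotient is not the fold enrichment.

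The peak of HSP90AA1 also lay differently from that of most members. Its strongest summit lay upstream of the TSS in every replicate, at −67, −62 and −26 bp. A second summit lay at −451, −425 and −411 bp with fold enrichments of 8.13, 11.3 and 7.19. The peaks reached from −590, −1024 and −779 bp to 223, 238 and 229 bp, so the downstream edge varied less than the upstream edge. The 3-unit heat shock element at −88 to −76 was inside the peak in all 3 replicates, and in replicates 1 and 2 the strongest summit fell inside the 2-unit element at −68 to −61. Since a nucleosome fragment is longer than these distances, a summit does not place the protein on the element.

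The genes nearest to HSP90AA1 in rank of mean HA fold enrichment over the 3 replicates were EIF1, a translation initiation factor, at 24.6 ± 8.30, SRSF3, a splicing factor, at 23.8 ± 8.04, and FLOT1, a membrane scaffold protein, at 21.5 ± 7.43 (SD, n = 3 each). Their differences from HSP90AA1 are smaller than the SD over its replicates, so the order among these TSSs is not resolved. The summits of EIF1 and SRSF3 lay downstream of the TSS in every replicate, at 102, 142 and 102 bp and at 80, 84 and 89 bp. That of FLOT1 lay at −1736, −1740 and −1727 bp, beyond the 1 kb window that only the edge of its peak reached.

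HSP90AB1, on the plus strand of chromosome 6 with its TSS at 44214838, encodes the constitutive cytosolic HSP90. It had fold enrichments of 3.62, 9.68 and 8.50 in the 3 replicates, with a mean of 7.27 ± 3.21 (SD, n = 3) and rank 821 of 3480. Replicate 1 was the low one, and there the gene ranked 4001 of 4382 TSSs with a peak. The summits lay at 67, 73 and 116 bp, in the 5′ untranslated part of exon 1 in replicates 1 and 2 and at the start of intron 1 in replicate 3. They held 61 fragments (46.7 to 78.4), 133 (111 to 158) and 99 (80.5 to 121). The control background there was 4, 4 and 3 fragments per base at control depth, above the commonest value. HSP90AB1 and HSP90AA1 thus differed less in HA fragments in replicate 3, 99 against 100, than in fold enrichment, 8.50 against 14.2, since the control background at HSP90AB1 was the higher.

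**Figure D2:**
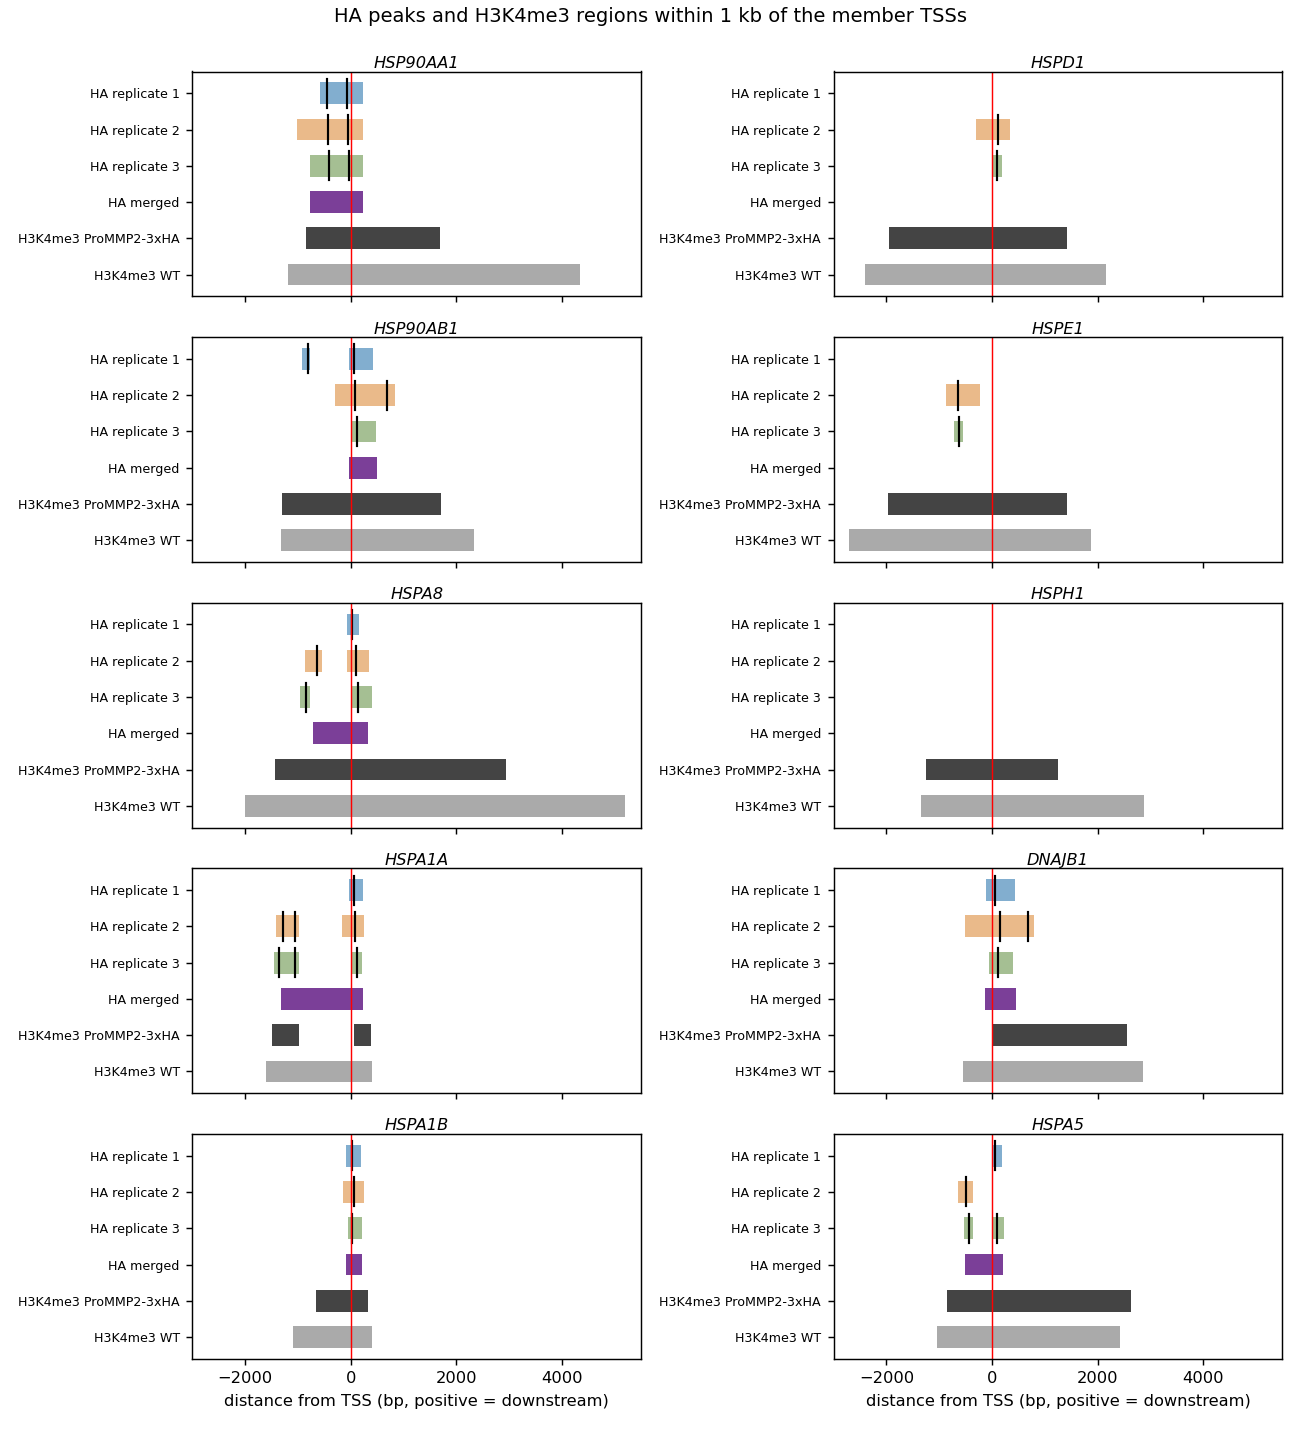
HA peaks of each replicate (coloured bars, with a black line at each summit), merged HA peaks and H3K4me3 regions of both lines for all 10 members, by distance in bp from the canonical TSS (red line), along the direction of transcription. HSP90AA1 carries its summits upstream of the TSS, most other members carry one just downstream, and H3K4me3 of both lines reaches beyond the merged HA peak on either side at the 7 members with one, except upstream at DNAJB1 in ProMMP2-3xHA cells. At HSPA1A, H3K4me3 of ProMMP2-3xHA cells leaves a gap from −976 to 54 bp, which lies inside the merged HA peak and holds the TSS.

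HSPA8, on the minus strand of chromosome 11 with its TSS at 122932844, encodes the constitutive cytosolic HSP70. The highest fold enrichment within 1 kb was 4.24, 6.27 and 3.67, a mean of 4.73 ± 1.37 (SD, n = 3) and rank 2805 of 3480. A summit lay just downstream of the TSS in each replicate, at 17, 100 and 128 bp, the first in the 5′ untranslated part of exon 1 and the others in intron 1. A second peak lay upstream, with its summit at −647 bp in replicate 2 and −849 bp in replicate 3, and in replicate 3 it was the higher by little, 3.67 against 3.58. The merged interval of 1052 bp reached from −723 to 328 bp, so it took in part of the upstream peak of replicate 2 and none of that of replicate 3. Fragment numbers were 94 (76.0 to 115) and 49 (36.3 to 64.8) at the downstream summit of replicates 2 and 3 and could not be resolved in replicate 1. The 3-unit element at −55 to −43 lay inside the peak in replicates 1 and 2, and the one at −230 to −218 in none.

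HSPA1A and HSPA1B, both on the plus strand of chromosome 6 with TSSs at 31783320 and 31795515, encode the stress-inducible cytosolic HSP70 in single exons and lie 12195 bp apart. Their sequences match over 799 of 800 bases from 201 to 1000 bp downstream of the TSS and over 188 of the 200 bases upstream. Stretches as long as the DNA on a nucleosome were shared by both genes when centred beyond 281 bp at HSPA1A and 280 bp at HSPA1B, and nowhere upstream of the TSS. Fragments wholly inside the shared part do not map to 1 place, and the authors filtered on mapping quality; the HA peaks at both TSSs ended at 256 bp or before. The values below therefore rest on the unshared part, and what lies farther downstream in these genes cannot be read from these lists. Neither gene's upstream 1 kb nor any part of the windows of the other 8 members held a repeated stretch of this length.

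HSPA1B had fold enrichments of 7.68, 8.04 and 6.67, a mean of 7.46 ± 0.711 (SD, n = 3) and rank 730 of 3480. It was the least variable of the members with a mean above the median of all TSSs. Its summits lay at 15, 58 and 20 bp in the 5′ untranslated part of the exon, with 106 fragments (86.8 to 128), 110 (90.4 to 133) and 77 (60.8 to 96.2). HSPA1A had peaks at its TSS with summits at 69, 76 and 116 bp and fold enrichments of 4.23, 4.62 and 3.05, a mean of 3.97 ± 0.820 (SD, n = 3). They held 87 fragments (69.7 to 107), 88 (70.6 to 108) and 61 (46.7 to 78.4).

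Fold enrichment was higher at HSPA1B than at HSPA1A in each of the 3 replicates, and the ranges did not overlap. The fragment intervals of the genes overlapped in every replicate, whereas the control background was 5, 6 and 6 fragments per base at HSPA1A and 3, 4 and 3 at HSPA1B. HA fragments were also more numerous at HSPA1B in each replicate, though within those overlapping intervals. The separation in fold enrichment therefore rests in part on a few control fragments, whose own counting error is not in these intervals. The labels name 1 HA library of WT cells, whereas the study describes HA replicates of WT cells as well. The commonest control background was 1.33, 1.55 and 1.41 fragments per base in replicates 1, 2 and 3. Whether the controls share fragments was not tested, and any shared ones would not repeat the comparison independently. The 2-unit element that both carry, at −106 to −99 in HSPA1A and −105 to −98 in HSPA1B, was inside the HA peak in replicate 2 only, at either gene.

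A second HA peak lay upstream of HSPA1A in replicates 2 and 3, with its strongest summit at −1055 and −1367 bp. Its fold enrichments of 4.87 and 4.0 were higher than at the TSS itself, but its fragments were fewer. These summits held 32 (21.9 to 45.2) and 33 (22.7 to 46.3) fragments, against 88 and 61 at the TSS. The control background was 1.55 and 2 fragments per base at the upstream summits, and 6 in both replicates at the TSS. With the strongest summit in the window taken, HSPA1A had a mean of 4.37 ± 0.449 (SD, n = 3) and rank 3077 of 3480. The near edge of this peak, at −984 and −985 bp, was the closest of any member's peaks to the 1 kb limit. The merged list joined it with the TSS peak into 1 interval of 1563 bp, which also covers the TSS of HSPA1L, a testis HSP70 that starts 260 bp upstream of HSPA1A on the other strand. HA at HSPA1A and HSPA1L therefore cannot be assigned to 1 of these genes.

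DNAJB1, on the minus strand of chromosome 19 with its TSS at 14629209, encodes a stress-inducible J-domain protein that delivers clients to HSP70. Its fold enrichment was 7.65, 13.3 and 14.1, a mean of 11.7 ± 3.51 (SD, n = 3) and rank 97 of 3480. Replicate 1 was the low one here, and replicate 3 the high one, unlike at HSP90AA1. The summits lay at 56, 149 and 115 bp, in the coding part of exon 1, with 60 fragments (45.8 to 77.2), 92 (74.2 to 113) and 99 (80.5 to 121). In replicate 3 the fragment intervals of DNAJB1 and HSP90AA1 overlapped, with 99 and 100 fragments and fold enrichments of 14.1 and 14.2. In replicates 1 and 2 the fragment intervals of these genes did not overlap, and HSP90AA1 was the higher. Of the 2-unit elements of DNAJB1, the one at −47 to −40 was inside the peak in all 3 replicates and the one at −77 to −70 in replicates 1 and 2.

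**Figure D3:**
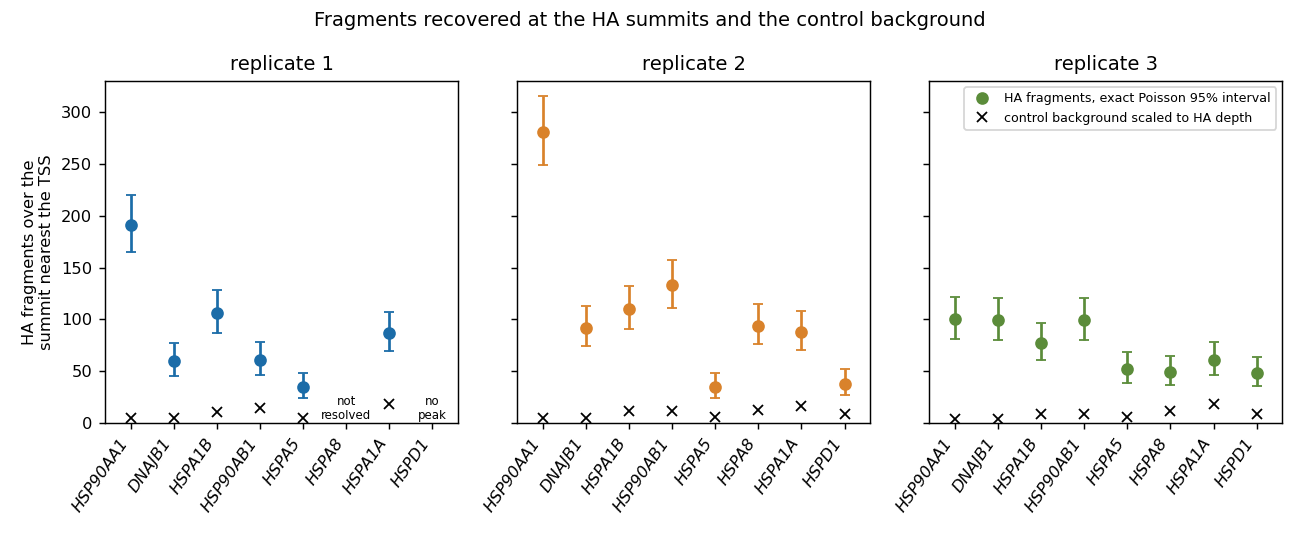
HA fragments over the summit nearest to the TSS, with exact Poisson 95% intervals that cover counting error only, in each replicate for the 8 members with a peak of their own; crosses give the control background scaled to the HA depth. HSP90AA1 stands above the other members in replicates 1 and 2 but not in replicate 3, where HSP90AA1, HSP90AB1 and DNAJB1 held 100, 99 and 99 fragments.

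HSPH1, on the minus strand of chromosome 13 with its TSS at 31736041, encodes HSP110, a nucleotide exchange factor of HSP70. No HA peak lay within 1 kb in any replicate, although H3K4me3 covered 2490 bp in ProMMP2-3xHA cells and the promoter has a 3-unit heat shock element. The nearest HA peak was 544.3, 328.0 and 544.4 kb away in replicates 1, 2 and 3. HA peaks were scarce along this chromosome: of the 204 TSSs on chromosome 13 with H3K4me3 in both lines, 23.5% had a merged HA peak, the second lowest share of 23 chromosomes. The chromosomes of the other members had shares of 42.1% on chromosome 19 to 59.4% on chromosome 2. The part of this low share in the absence of a peak at HSPH1 was not tested.

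HSPD1 and HSPE1 encode the mitochondrial chaperonin HSP60 and its cochaperonin HSP10. Their TSSs, at 198364564 and 198365103 on chromosome 2, lie 539 bp apart and point away from each other, and the TSS of HSPE1-MOB4, a readthrough gene, lies 34 bp from that of HSPE1. The pair shared 1 HA peak in replicates 2 and 3, with fold enrichments of 3.63 and 4.25 and with 38 fragments (26.9 to 52.2) and 48 (35.4 to 63.6). The summit lay at 108 and 95 bp in intron 1 of HSPD1, and at −647 and −634 bp from HSPE1, so HA was on the HSPD1 side of the pair. No peak was called in replicate 1 or in the merged list. HSPD1 also has an annotated start of protein coding transcripts 16.9 kb farther upstream, and there a merged peak was present, with fold enrichments of 5.1, 6.07 and 6.57.

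HSPA5, on the minus strand of chromosome 9 with its TSS at 128003622, encodes BiP, the HSP70 of the ER. Its fold enrichment was 4.64, 4.49 and 6.11, a mean of 5.08 ± 0.896 (SD, n = 3) and rank 2464 of 3480. The strongest summit lay at 53 and 90 bp in replicates 1 and 3, in the 5′ untranslated part of exon 1, but at −486 bp in replicate 2, which had no peak at the TSS. Replicate 3 had a summit at −441 bp as well. Fragments numbered 35 (24.4 to 48.7), 35 (24.4 to 48.7) and 52 (38.8 to 68.2), and 35 was the fewest at any member's nearest summit in replicates 1 and 2. The ER stress response element at −66 to −48 lay inside the peak in none of the replicates.

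By mean fold enrichment the 7 members with a peak in every replicate fell in the order HSP90AA1, DNAJB1, HSPA1B, HSP90AB1, HSPA5, HSPA8 and HSPA1A. The ranges over replicates of HSP90AA1 and DNAJB1 did not overlap, but only by 14.2 against 14.1. HSPA1B and HSP90AB1 differed by less than the SD of HSP90AB1, and so did HSPA5, HSPA8 and HSPA1A among themselves by less than the SD of HSPA8. The median over the members with a peak was 4.64, 6.27 and 6.11 by replicate, a mean of 5.68 ± 0.898 (SD, n = 3), beside 5.22 ± 0.392 over all TSSs with a peak. These member medians are over 7, 9 and 9 genes, so the gene set differs between replicates. The shared peak of HSPD1 and HSPE1 counts at both genes in replicates 2 and 3. The members as a list were thus near the median of HA promoters in fold enrichment, with HSP90AA1 and DNAJB1 far above it. In fragments at the strongest summit the median was 74, 92 and 52 by replicate, beside 51, 51 and 44 over all TSSs with a peak.

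With the summit nearest to the TSS taken, the summits of HSP90AB1, HSPA8, HSPA1A, HSPA1B, HSPD1 and DNAJB1 lay downstream of the TSS wherever a peak was called. They lay between 15 and 149 bp, but taking the nearest summit itself favours short distances. The nearest summits of HSP90AA1 and HSPE1 lay upstream, as did that of HSPA5 in replicate 2. For nearest summits, no share over all TSSs was computed. With the strongest summit taken, 6 of 7, 5 of 9 and 5 of 9 members had it downstream in replicates 1, 2 and 3, or 85.7%, 55.6% and 55.6%, where 55.3%, 56.1% and 58.7% of all TSSs with a peak did. The merged peaks of the 7 members were 314 to 1563 bp wide, where the median over all 6042 TSSs with one was 495 bp. They covered 3.14% of the canonical transcript at HSPA5 to 12.4% at DNAJB1, above the median of 0.732% over those TSSs. The transcripts of the members with a merged peak were also short, 2400 to 6783 bp, beside a median of 25331.5 bp.

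**Figure D4:**
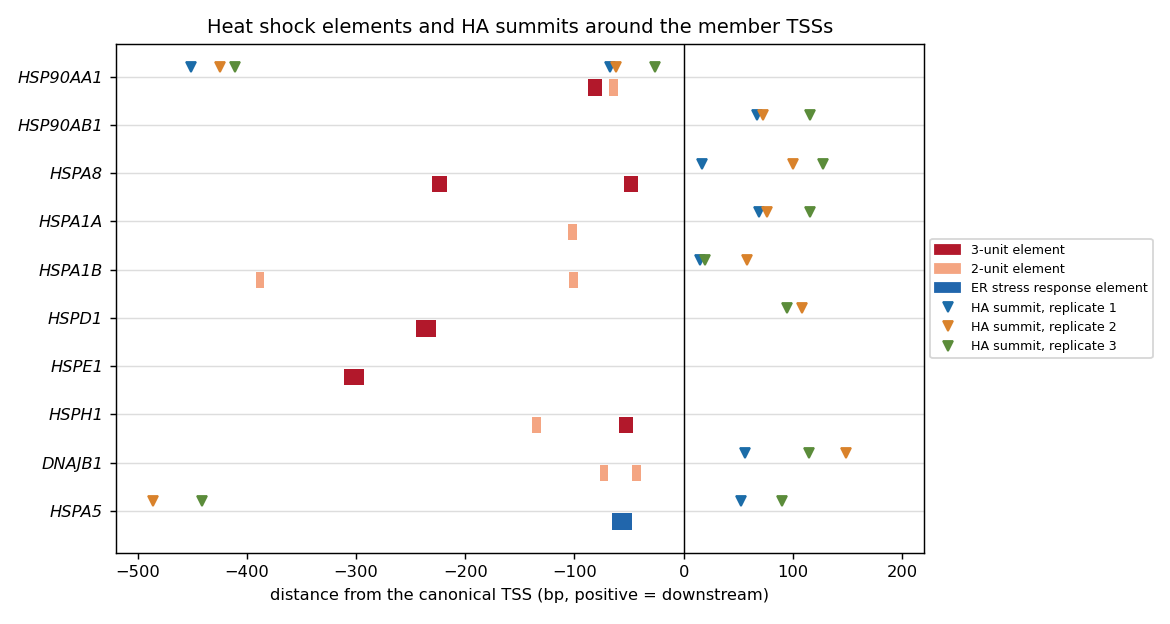
Positions in bp from the canonical TSS of heat shock elements of 3 units (dark red) and 2 units (light red), the ER stress response element (blue) and the HA summits of each replicate (triangles) for the 10 members. The elements lie upstream of the TSS, 19 of the 38 member summits (those of HSPD1 and HSPE1 counted at both genes, and those beyond the axis not drawn) lie between 15 and 149 bp downstream, and of the members HSP90AA1 has the summits nearest to an element.

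Over all promoters, a 3-unit heat shock element was not more common with HA than without it. Of the 160 promoters that hold one, 37 had a merged HA peak, or 23.1%, and without the members this was 35 of 155, or 22.6%. Among TSSs with H3K4me3 in both lines, 0.620% of those with a merged HA peak and 0.649% of those without one held the element. Within the members, those with the element included the highest HA promoter, HSP90AA1, and the 3 without a merged peak, HSPD1, HSPE1 and HSPH1. These shares are a description of sequence matches and carry no test.

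H3K4me3 was compared between the lines with 1 library each, so a difference between the lines and a difference between the libraries cannot be told apart. All 10 members had H3K4me3 within 1 kb in ProMMP2-3xHA cells, where 61.2% of all TSSs did, and all 10 had it in WT cells, where 65% did. The regions were wide: the median over the members was 2773.5 bp in ProMMP2-3xHA cells and 3936 bp in WT cells, beside 1433 and 1819 bp over all TSSs with a region. In ProMMP2-3xHA cells 8 of the 10 members fell in the widest of 4 equal classes of TSSs by width, those of 1980 bp or more, the exceptions being HSPA1A and HSPA1B. In this class 69.7% of TSSs had a merged HA peak, against 24.3% in the narrowest class, and of the 8 members in it 5 did.

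The widest region belonged to HSPA8, with 7195 bp in WT cells, rank 30 of 17130 regions, and 4368 bp in ProMMP2-3xHA cells. HSP90AA1 had 5539 bp in WT and 2525 bp in ProMMP2-3xHA cells, a ratio of 0.456, and 8.81% of all TSSs with H3K4me3 in both lines had a lower ratio. The change was on the downstream side: the region ended 4347 bp past the TSS in WT cells and 1679 bp past it in ProMMP2-3xHA cells, while the upstream edge moved from −1191 to −845 bp. HSPA8 likewise ended at 5192 bp in WT and 2929 bp in ProMMP2-3xHA cells, and HSPH1, which had no HA peak, at 2886 and 1243 bp, with widths of 4226 and 2490 bp. HSPD1 and HSPE1 shared 1 region of 4571 bp in WT and 3379 bp in ProMMP2-3xHA cells.

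**Figure D5:**
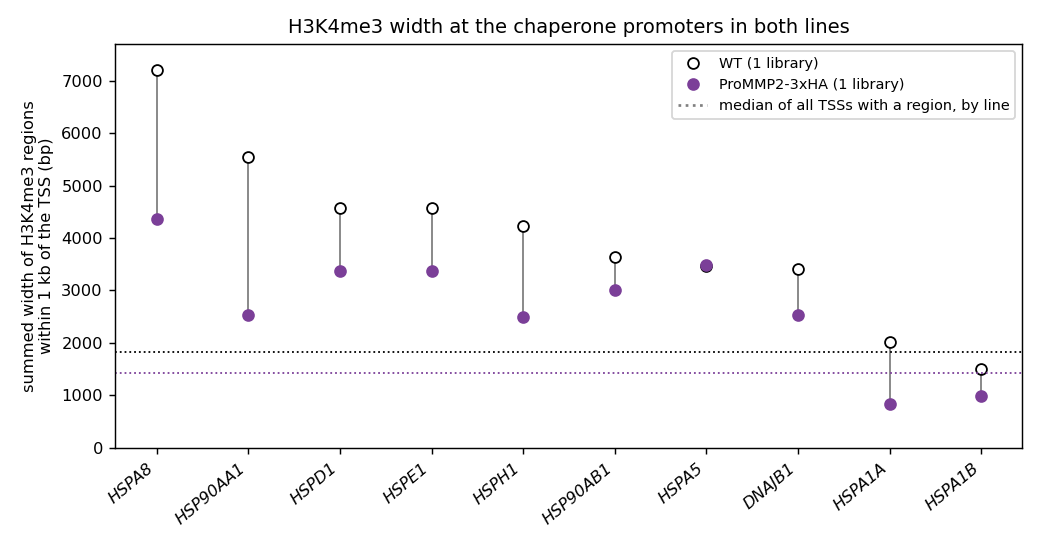
Summed width in bp of the H3K4me3 regions within 1 kb of each member's TSS in WT (open circles) and ProMMP2-3xHA cells (filled circles), with 1 library per line and the median over all TSSs with a region in each line (dotted). The region is narrower in ProMMP2-3xHA cells at 9 of 10 members, most in bp at HSP90AA1, and as wide at HSPA5, with 3483 and 3463 bp.

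Over the members, the region was narrower in ProMMP2-3xHA cells at 9 of 10, as it was at 93.1% of all TSSs with H3K4me3 in both lines. HSPA5, at a ratio of 1.01, was the exception, because its downstream edge lay 213 bp farther out. The median ratio was 0.703 over the members and 0.782 over all TSSs. The downstream edge moved towards the TSS by a median of 536.5 bp at the members and 198 bp over all TSSs, and the upstream edge by 390 and 170 bp. Since the members' regions were wider to begin with, a larger change in bp does not set them apart. HSP90AB1, at 3646 bp in WT and 3010 bp in ProMMP2-3xHA cells, had a ratio of 0.826.

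All 10 member TSSs lay inside an H3K4me3 region in WT cells, and 2 of them, those of DNAJB1 and HSPA1A, lay outside it in ProMMP2-3xHA cells. This share equals the background, since 20% of the 11310 TSSs that were inside a region in WT cells, with H3K4me3 in both lines, were outside it in ProMMP2-3xHA cells. At DNAJB1, the region of 3410 bp in WT cells began at −557 bp, whereas in ProMMP2-3xHA cells its 2537 bp began at 21 bp, so the TSS and the upstream part of the HA peak lay outside it. At HSPA1A, 1 region of 2018 bp in WT cells stood against regions of 517 and 326 bp in ProMMP2-3xHA cells, on either side of a gap from −976 to 54 bp. A TSS with more regions in ProMMP2-3xHA than in WT cells was uncommon, at 0.256% of all. The gap measured 1029 bp, little more than the 1001 bp that is the smallest gap in that list, so a slightly shorter gap would have been closed when the list was made. HSPA1B had 996 bp in ProMMP2-3xHA and 1494 bp in WT cells, and in both genes the region ended 330 to 404 bp past the TSS, near where the shared sequence begins.

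Alternative starts were compared, since several members have more than 1. The long isoform of HSP90AA1 starts at 102606023, 52.6 kb upstream on the same strand. No HA peak lay within 1 kb of it in any list, though it carried H3K4me3 of 1791 bp in ProMMP2-3xHA and 2159 bp in WT cells. HA peaks of HSP90AA1 were thus called at the canonical start and not at the upstream one, where weaker HA signal may go uncalled. A start of DNAJB1 at 14640005 had a peak in replicate 3 only, with a fold enrichment of 2.95, and H3K4me3 of 1234 and 1564 bp. The canonical TSS of DNAJB1 lies 10.8 kb from this start and 11197 bp from the TSS of TECR, on the plus strand. Neither this HA peak nor this H3K4me3 can therefore be assigned to 1 of these genes. HSPA8 has an annotated start at 122933938, 1.1 kb upstream of its canonical one. The upstream peaks of HSPA8 in replicates 2 and 3, with fold enrichments of 4.76 and 3.67, lay within 1 kb of this start too. So did its merged peak. The starts of HSPA8 at 122929805 and 122931094 had no HA peak within 1 kb.

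The other genes of the chaperone network gave the setting of the members. Of 86 chaperone, cochaperone and heat shock factor genes measured, 49 had a merged HA peak, or 57.0% beside 30.4% of all TSSs. A peak in every replicate was found at 27 (17.5% of all TSSs) and none in any at 31 (62.1%). H3K4me3 was present in both lines at 73 of them, and all 49 with a merged peak were among these, or 67.1% beside 49.2% of all TSSs with H3K4me3 in both lines. Nothing particular to the list or to a class is read from these shares. The cytosolic chaperonin CCT, which folds actin and tubulin, had a merged peak at 8 of 8 subunit genes, with mean fold enrichments from 4.86 ± 0.499 at CCT6A to 7.77 ± 1.70 at TCP1 among the 3 with a peak in every replicate. Of the other HSP70 and HSP110 genes 5 of 11 had a merged peak, with HSPA4, an HSP110, at 7.34 ± 1.03. HSPA1L, at 4.37 ± 0.449, took the same peaks as HSPA1A.

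Of 22 J-domain genes 14 had a merged peak, from DNAJC7 at 3.60 ± 0.197 to DNAJC10 at 9.04 ± 1.47. Nucleotide exchange factors had one at 5 of 10, from SIL1 at 4.21 ± 0.185 to BAG6 at 10.1 ± 3.03, and cochaperones of HSP90 and HSP70 at 7 of 12, from PTGES3 at 5.07 ± 1.18 to ST13 at 8.33 ± 3.72. The small heat shock proteins, which hold unfolded clients without ATP, had one at 2 of 9, HSPB6 at 4.53 ± 0.523 and HSPB1 at 11.3 ± 2.34, and 3 of the 9 carried H3K4me3 in both lines. ER folding factors had one at 5 of 8, from CALR at 2.75 ± 0.281 to SDF2L1 at 6.11 ± 1.85. Both HSP90 paralogs of other compartments had a merged peak, HSP90B1 with a peak in replicate 2 only, at 5.85, and TRAP1 in replicate 1 only, at 3.31. Of 4 heat shock factors only HSF1 had one, with 6.22 and 5.42 in replicates 2 and 3. The highest mean of the 27 network genes with a peak in every replicate was that of HSPB1. It differed from that of DNAJB1 by less than the SD of either gene, and HSPB1 was the higher in replicates 1 and 2 with 9.47 and 13.9 against 7.65 and 13.3, so their order is not resolved.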

How the data were processed

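Per the labels and the methods of the study, the authors trimmed reads with Trim Galore 0.6.0, aligned them as pairs to GRCh37 with Bowtie2 2.3.5.1, filtered on mapping quality with SAMtools 1.9, removed duplicates with Picard and called peaks with MACS2 3.0.0a6 at a q-value of 0.05. Each deposited HA replicate list gives, per summit, a score, a fold enrichment over the control as a ratio, and −log10 of the p-value and q-value. The deposited merged HA and H3K4me3 lists, in which the authors combined narrow and broad calls, hold intervals only. Their smallest gaps were 4032 bp (merged HA), 1001 bp (ProMMP2-3xHA H3K4me3) and 1048 bp (WT H3K4me3), so nearer calls were joined.

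TSSs were the 5′ ends of the Ensembl canonical transcripts in GENCODE version 44 lifted to GRCh37. A peak counted within a gap of 1 kb, and the summit with the highest fold enrichment was taken. Fragments and control background at each summit were recovered from the fold enrichment and Poisson p-value of MACS2 for 98.4%, 99.1% and 95.3% of summits of replicates 1, 2 and 3, at depth ratios of HA to control of 3.57, 2.81 and 3.00; the recovery was tested on simulated data. Whole fragments were accepted within 0.08. Exact Poisson 95% intervals cover counting error only. Sequences, motifs (both strands) and repeated stretches of nucleosome length were read from the GRCh37 genome, and no interval passed a chromosome end of that build. Work was done in Python 3.11.15 with numpy 2.4.6, pandas 2.3.3, scipy 1.17.1 and pysam 0.24.0.

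The members and lists were chosen with earlier results of these data known, and no test was made. Named besides the members are, per class of chaperone genes, those with the highest and lowest mean fold enrichment among genes with a peak in every replicate, genes with a TSS within 1 kb of a member's TSS or under its merged peak, and the 3 nearest in rank to HSP90AA1. HSP90B1, TRAP1 and HSF1, in classes without such a gene, and the alternative starts were named after their values were seen. So were WDR20 and TECR, whose TSSs are the nearest others to those of HSP90AA1 and DNAJB1. Of 87 listed network genes 1 had no canonical TSS under its name.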

Additional observations from a re-analysis of the deposited data

How the results depend on the processing

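Of 68 alternatives over 11 results, 62 moved a value by less than the SD over replicates or, for counts and the width ratio, by less than 1.5 times. The window mattered most: with the TSS required inside the interval, members with an HA peak in every replicate fell from 7 to 4, the chaperone network genes with a merged peak from 49 to 30, the median fold enrichment over members with a peak rose from 5.68 to 7.49 and their median fragments from 72.7 to 93.3, since fewer members remained. At a q-value of 0.001 or less, 4 members had a peak in every replicate. With 2 adjoining units in place of 3, 8 members in place of 5 had a heat shock element. Leaving out 1 HA replicate gave 7 to 9 members with a peak in every remaining replicate, the 9 without replicate 1, a mean fold enrichment of HSP90AA1 of 18.8 (without replicate 2) to 31.6 (without replicate 3), a median over members of 5.38 to 6.19 and of 63 to 83 fragments, and 4 to 5 members with all strongest summits downstream. With the 5′ end of the whole gene record as TSS, HSP90AA1 had no HA peak and so no value, because its record starts at the upstream isoform. No paired analysis was possible because the groups share 1 replicate number and no test was made. Depth limits the HA lists to summits of at least 23 to 29 fragments at the commonest control background, and of more where the control is higher. For H3K4me3 the depth is unknown.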
